A study of Mus musculus with 6 samples.

Results

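The MHC class II genes and Ciita, the gene of their transcriptional coactivator, were followed in unstimulated bone marrow-derived macrophages of wild-type and GPS2 knockout mice. The set holds 9 genes: H2-Aa, H2-Ab1, H2-Eb1, H2-DMa, H2-DMb1, H2-Oa, H2-Ob, Cd74 and Ciita, chosen by name through the array's gene annotation. For 8 of them a probe set annotated to that gene alone was available, and the brightest such probe set stood for the gene among 18820 tested genes. The remaining gene, H2-DMb1, was measured only by a probe set that it shares with the related H2-DMb2, and it is given apart. Of the 9, 5 fell in the knockout, 0 rose and 4 did not pass the test. Of all tested genes 6.72% changed, with 3.83% that fell. The set was chosen with earlier results of these data known, so this contrast is a description.

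RNA was measured on Affymetrix expression arrays, 1 array for each of 6 samples, 3 of wild-type (WT) and 3 of GPS2KO cells. The mice, all male, were about 12 to 16 weeks of age, and the labels name no strain. Marrow cells of both groups were grown for 7 days with 10% serum and 30% medium conditioned by L929, a fibroblast line that secretes macrophage growth factor, and neither group was treated. The labels describe the knockout as one of macrophages, without a Cre driver or the deleted exons, and they do not tie an array to an animal, so the spread that p-values rest on could be technical. Gps2, a subunit of the nuclear co-repressor complex with HDAC3, had a log2 signal of 10.96 ± 0.04 in WT and 10.21 ± 0.07 in GPS2KO (SD, n = 3 each), a fall of 0.75 (SE 0.0472, limma adjusted p = 0.000256). This left 59.7% of the WT signal. Probes outside the deleted part might not show the loss, but where the probes lie relative to it is not given. The origin of the remaining signal was not tested. An exact 2-sided permutation test gave 0.1, the smallest p that 3 arrays against 3 allow. Pearson correlations between arrays across genes were 0.9989 to 0.9991 within groups and 0.9977 to 0.9981 between groups.

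Class II molecules display peptides from the endosomal pathway to CD4 T cells. The alpha and beta chains pair in the endoplasmic reticulum around the invariant chain, which Cd74 encodes. In endosomes, proteases cut the invariant chain down to a peptide called CLIP, the chaperone H2-DM exchanges CLIP for antigen peptides, and H2-O restrains H2-DM. CIITA binds no DNA itself: it is recruited to a promoter module of S, X and Y boxes by the proteins RFX, CREB and NF-Y, and interferon gamma induces it in macrophages.

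The promoters of the members were searched for the letters of this module. RefSeq's promoter windows of assembly GRCm38.p6, 250 bases before to 50 after an annotated start, covered 6 of the 9 members: H2-Aa, H2-Eb1, H2-DMa, H2-DMb1, H2-Oa and H2-Ob. H2-Ab1, Cd74 and Ciita were not among them. Each window was searched on both strands for GNAAC, the core of the X box, followed on the same strand by ATTGG, the core of the Y box, with 15 to 30 bases between them, so that the cores do not overlap. The stretches that held both cores are given here. Of the members that hold them, H2-Aa, H2-Eb1 and H2-Ob fell, and H2-DMb1 and H2-Oa did not pass. Each runs 5′ to 3′ along the gene's own strand, and capitals mark first the X core and then the Y core.
H2-Aa, chr17:34287855-34287916, minus strand: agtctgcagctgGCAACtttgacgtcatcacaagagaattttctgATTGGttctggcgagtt
H2-Eb1, chr17:34305764-34305824, plus strand: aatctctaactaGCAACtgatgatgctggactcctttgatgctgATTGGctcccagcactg
H2-Ob, chr17:34238806-34238864, plus strand: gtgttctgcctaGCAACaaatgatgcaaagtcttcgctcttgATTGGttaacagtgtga
H2-Oa, chr17:34092291-34092352, plus strand: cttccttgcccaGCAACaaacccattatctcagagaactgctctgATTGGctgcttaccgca
H2-DMb1, chr17:34153085-34153146, plus strand: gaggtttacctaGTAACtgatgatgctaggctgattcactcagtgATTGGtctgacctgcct
H2-Eb2, chr17:34325531-34325591, plus strand: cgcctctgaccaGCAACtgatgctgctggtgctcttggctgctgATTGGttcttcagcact

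The spacing was much alike. Between the cores lay 28 bases in H2-Aa, H2-Oa and H2-DMb1, 27 in H2-Eb1 and in H2-Eb2, a class II gene outside the set, and 25 in H2-Ob. The Y core began 48 bases before the annotated start of H2-Aa, 59 before that of H2-Eb1, 61 before H2-DMb1, 43 before H2-Oa, 57 before H2-Ob and 100 before H2-Eb2. Neither of the 2 windows of H2-DMa held the pair, nor did the 1 window of H2-DMb2, also a class II gene outside the set. Of 32851 promoter windows, GNAAC alone was in 84.8%, ATTGG alone in 37.4% and the spaced pair in 2.79%. The spacing limits were set with these promoters in view, so the match of the members is a description.

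**Figure D1:**
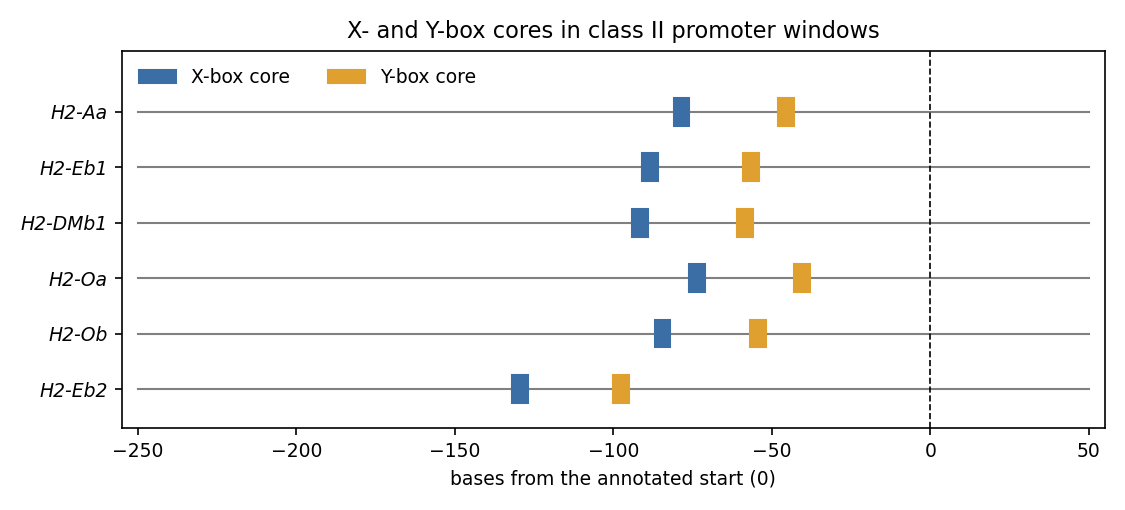
Positions of the X-box core (blue) and the Y-box core (yellow) in the promoter windows of 5 members and of H2-Eb2, in bases from the annotated start at 0. In each window the X core lies farther from the start than the Y core, with 25 to 28 bases between them.

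Most genes with this arrangement did not fall. Of 14749 tested genes with a promoter window, 501 held the pair, and 24 of these, 4.79%, fell, against 3.86% of the 14248 genes without it. With the class II genes left out, 21 of 496 fell, 4.23%. Among the class II genes with the pair, H2-Aa, H2-Eb1 and H2-Ob fell, and H2-Oa, H2-DMb1 and H2-Eb2 did not pass. The mean signals of H2-Oa and H2-Eb2, 5.25 and 4.15, were low, and background compresses differences there. H2-DMb1 was read only together with H2-DMb2, whose window lacks the pair. A fall of these genes could thus have been missed, and the part of the arrangement in the falls was not tested.

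The 3 classical chains, H2-Ab1, H2-Aa and H2-Eb1, were all lower in GPS2KO by about the same amount. A difference passed when its limma p, adjusted by Benjamini-Hochberg over all 18820 genes, was under 0.05. By that rule 3.83% of all genes fell and 2.9% rose. Centring each array on its median instead moved the split from 720 falls and 545 rises to 1061 falls and 460 rises. The values are log2 signals, on which a difference of 1 is a doubling, and in whole-culture RNA fewer positive cells and less RNA per cell cannot be told apart.

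H2-Ab1, the beta chain of the molecule I-A, read 9.84, 9.69 and 9.71 in the WT samples and 8.44, 8.35 and 8.76 in the GPS2KO samples. The groups were far apart, and the GPS2KO arrays were more spread than the WT arrays. It fell from 9.75 ± 0.09 to 8.51 ± 0.21 (SD, n = 3 each), a log2 change of -1.23 with a 95% confidence interval of -1.47 to -0.99 (adjusted p = 0.000631). This left 42.6% of the WT signal and was the fall of rank 7 among all tested genes.

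H2-Aa, the alpha chain of I-A and so the partner of H2-Ab1, read 9.37, 9.38 and 9.29 in WT and 8.23, 8.16 and 8.37 in GPS2KO. The groups were far apart and both tight. The change was -1.09 (interval -1.23 to -0.95, adjusted p = 0.000178), to 46.9% of WT, at rank 9 of the falls.

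H2-Eb1, the beta chain of the molecule I-E, read 9.07, 8.91 and 8.84 in WT and 7.84, 7.82 and 8.07 in GPS2KO. Again no GPS2KO array reached the lowest WT array. The change was -1.03 (interval -1.22 to -0.83, adjusted p = 0.000566), to 49.0% of WT, at rank 15. The intervals of the 3 chains overlapped each other, so no order among their falls is settled.

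Their partner genes at the edge of the family gave dim signals. H2-Ea, the alpha chain of I-E, which RefSeq lists as a transcribed pseudogene in its C57BL/6J assembly, had a mean of 4.14 ± 0.17 in WT and 4.05 ± 0.12 in GPS2KO. H2-Eb2, a further beta chain gene, had 4.12 ± 0.03 and 4.19 ± 0.09. Both were dim. Signals are called so here when a gene's mean is below 5.49, a limit that 40% of all tested genes do not reach, and background compresses differences there. Neither passed (adjusted p = 0.653 and 0.54).

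Cd74, the invariant chain that occupies the groove of new class II molecules, fell by a smaller amount than the chains it binds. Its signal was 10.74, 10.86 and 10.75 in WT and 10.51, 10.42 and 10.52 in GPS2KO. The groups did not overlap, but the gap between the nearest arrays was small. The change was -0.30 (SE 0.0497, interval -0.42 to -0.18, adjusted p = 0.0119), to 81.2% of WT. The whole interval lay above those of H2-Ab1, H2-Aa and H2-Eb1, a difference between genes that was not itself tested. The call held with any 1 array left out, at adjusted p from 0.0311 to 0.0466. It was close to the threshold with every probe set tested (0.0486) and with the replicate number as a further term (0.0493).

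The peptide exchange factor H2-DM did not follow the chains. H2-DMa, its alpha subunit, read 9.77, 9.81 and 9.69 in WT and 9.93, 9.78 and 9.84 in GPS2KO. The groups overlapped, with the highest value in GPS2KO. The difference was 0.09 (interval -0.03 to 0.21, adjusted p = 0.387), an interval that leaves out a fall of the size seen in any of the 3 classical chains. The probe set shared by H2-DMb1 and H2-DMb2, genes of its beta subunit, read 8.45, 8.33 and 8.10 in WT and 8.25, 8.17 and 8.28 in GPS2KO. All GPS2KO values lay inside the WT range. The difference was -0.06 (interval -0.29 to 0.17, adjusted p = 0.822 in a fit over all 35556 probe sets, of which 1.16% fell). It turned to 0.02 without WT replicate 1, and the signals of the genes sharing the probe set cannot be told apart.

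Of the subunits of H2-O, the inhibitor of H2-DM that B cells and some dendritic cells make, H2-Ob passed and H2-Oa did not. H2-Ob, the beta subunit, read 6.86, 6.89 and 6.61 in WT and 6.42, 5.98 and 6.24 in GPS2KO. The groups did not overlap, yet the arrays within each group were spread widely. The change was -0.57 (SE 0.118, interval -0.85 to -0.29, adjusted p = 0.0303), to 67.3% of WT. This call was the least secure of the 5: it was lost on leaving out WT replicate 1 (0.0985) or 2 (0.0947) or GPS2KO replicate 2 (0.0628) or 3 (0.0805), and when every probe set was tested (0.102). H2-Oa, the alpha subunit, read 5.18, 5.35 and 5.39 in WT and 5.23, 5.29 and 5.06 in GPS2KO. These dim values overlapped, with a difference of -0.11 (interval -0.29 to 0.07, adjusted p = 0.463).

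Ciita itself was below the dim limit of 5.49 in every sample. It read 4.97, 4.95 and 4.84 in WT and 4.81, 4.80 and 4.85 in GPS2KO, so that 1 GPS2KO array lay above the lowest WT array. The difference was -0.10 (SE 0.0471, interval -0.21 to 0.01, adjusted p = 0.275). Its mean of 4.87, at the 30.8th percentile of all tested genes, was dim, and a change in Ciita RNA that background hides was not detectable at this signal.

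**Figure D2:**
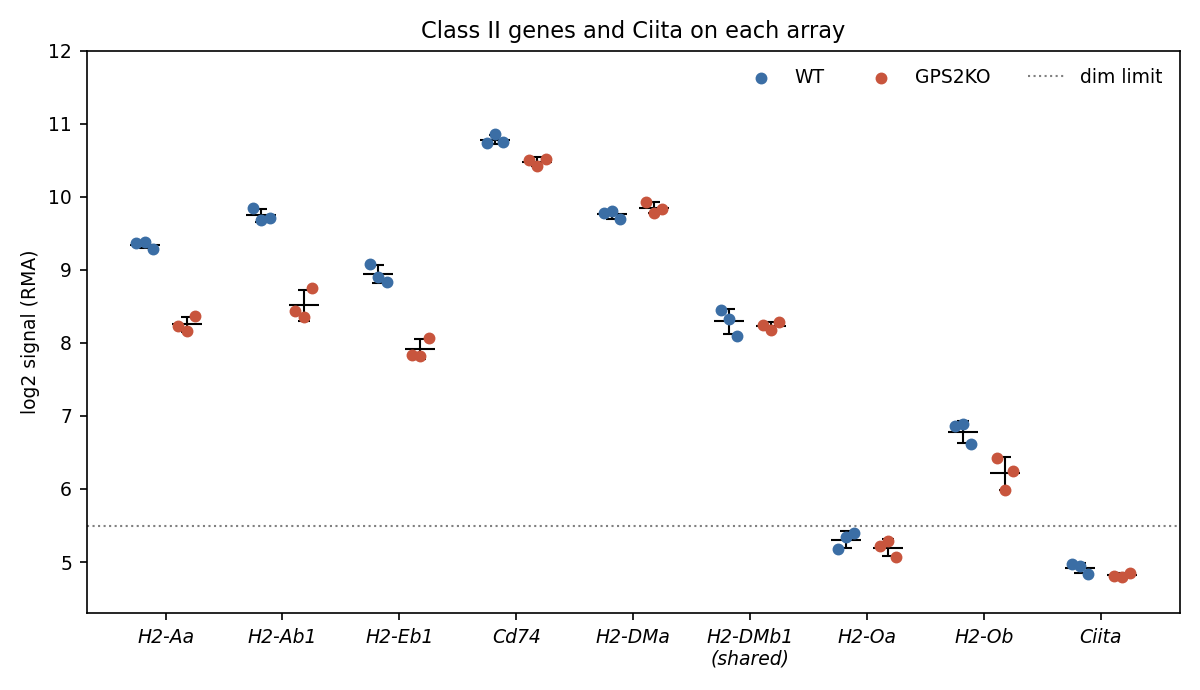
Log2 signal of each class II gene and Ciita on each of the 6 arrays, WT in blue and GPS2KO in red, with the mean and SD of 3 arrays in black and the dim limit of 5.49 dotted. H2-Aa, H2-Ab1, H2-Eb1, Cd74 and H2-Ob have GPS2KO points below all WT points, while H2-Oa and Ciita lie under the dotted line in both groups.

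Across the 9 genes, 5 had groups that did not overlap, all with GPS2KO lower, where 15.2% of all tested genes were lower without overlap. Means were lower in GPS2KO for 8 of the 9, beside 10082 of all 18820 tested genes. Among the 8, Ciita, H2-Oa and H2-DMb1 did not pass and their groups overlapped. Over the 8 members with a probe set of their own, the median change was -0.44, beside -0.01 over all tested genes. As the members were chosen with earlier results known, these contrasts are descriptions.

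Within a group many members had their lowest or highest value on the same array. These counts were not taken over all genes, so they are only a description. GPS2KO replicate 2 was the lowest GPS2KO array for 8 of the 9 members, all but H2-Oa, and GPS2KO replicate 3 the highest for 6. In WT, replicate 3 was the lowest for 6 members. The median deviation of the members from their group mean was -0.07 on GPS2KO replicate 2, 0.04 on GPS2KO replicate 3 and -0.06 on WT replicate 3. Over all genes the median deviations of the 6 arrays lay between -0.01 and 0.0046. The falls of H2-Ab1, H2-Aa, H2-Eb1 and Cd74 passed whichever 1 array was left out, and the change of H2-Ab1 then ran from -1.35 to -1.15.

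The proteins that bind the X and Y boxes, and the coactivators that CIITA brings in, showed little movement at the RNA level. Of 11 tested genes of this list 1 fell, 0 rose and 10 did not pass, with a median of -0.0047. Among all tested genes 3.83% fell and 2.9% rose. Kat2b, a histone acetyltransferase, went down by 0.23 (adjusted p = 0.0358). That call was lost on leaving out WT replicate 2 (0.1) or 3 (0.109) or GPS2KO replicate 2 (0.122) or 3 (0.119), and with every probe set tested (0.1). Rfx5, the DNA-binding subunit of RFX, was at 7.61 ± 0.06 in WT and 7.51 ± 0.01 in GPS2KO (-0.09, adjusted p = 0.277), and Rfxap differed by 0.06 (adjusted p = 0.519). The NF-Y subunits Nfya, Nfyb and Nfyc differed by 0.09, 0.03 and -0.12, with adjusted p of 0.242, 0.855 and 0.127. With a mean-variance trend in the test, 1 gene of this list rose and 2 fell, beside 926 rises and 1248 falls over all genes.

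Among regulators upstream of Ciita, 12 of 13 tested genes had lower means in GPS2KO, beside 10082 of all 18820 genes. Of the 13, 1 fell and 0 rose, with a median of -0.10, where 3.83% of all tested genes fell and 2.9% rose. Irf1, which interferon gamma induces and which acts on the Ciita promoter, fell from 9.26 ± 0.09 to 8.93 ± 0.01 (-0.33, SE 0.0512, adjusted p = 0.00953). Its call held with any 1 array left out, at adjusted p up to 0.0406. Averaged over both its probe sets, however, the change was -0.20 (adjusted p = 0.0184). Prdm1, a repressor of Ciita, differed by -0.20 (adjusted p = 0.0507), just short of the threshold, and passed after quantile normalization, after median centring, on leaving out WT replicate 1 or the dim genes and when the test modelled variance against signal; its adjusted p then ran from 0.0217 to 0.0398. Ifngr1 and Ifngr2, the chains of the interferon gamma receptor, differed by -0.10 and -0.08 (adjusted p = 0.165 and 0.265). Socs1, which curbs the JAK kinases of this receptor, differed by -0.19 (adjusted p = 0.181). Ifng itself was dim in both groups, at 4.49 ± 0.12 and 4.36 ± 0.09. The myeloid factors Spi1 and Irf8 differed by -0.04 each (adjusted p = 0.615 and 0.692). With a variance trend 4 genes of this list fell, while falls over all genes grew from 720 to 1248.

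Genes of class II processing and traffic, most of them endosomal enzymes that prepare peptides or trim the invariant chain, did not fall. Of 10 tested, 1 rose, 0 fell and 9 did not pass, with a median of 0.09 and means lower in GPS2KO for 3. Over all tested genes 2.9% rose and 3.83% fell. Without overlap, 6 of the 10 were higher in GPS2KO and 1 was lower, beside 2233 and 2870 of all 18820 genes. Ctsl, a cathepsin, rose from 12.69 ± 0.06 to 12.97 ± 0.04 (0.29, SE 0.0471, adjusted p = 0.0114). Ctss, the cathepsin that makes the final cuts in the invariant chain, had 12.59 ± 0.01 in WT and 12.73 ± 0.03 in GPS2KO. Its groups did not overlap, but the difference of 0.14 did not pass (adjusted p = 0.0707); it did on leaving out dim genes (0.0252) or modelling a variance trend (0.000805). The same held for Ctsd, a further cathepsin, at 0.14 (adjusted p = 0.0678; 0.0227 and 0.000266). Lgmn, the asparagine endopeptidase, and Ifi30, the lysosomal thiol reductase, differed by 0.13 and 0.12 (adjusted p = 0.112 and 0.139). On the lower side were Ctsf, a cathepsin of macrophages, at -0.11 (adjusted p = 0.338), and Sppl2a, which removes the last membrane stub of the invariant chain, at -0.07 (adjusted p = 0.361). Marchf1, the ubiquitin ligase that sends surface class II molecules to degradation, differed by -0.02 (adjusted p = 0.82). With a variance trend 6 genes of this list rose, and without dim genes 4. Rises over all genes also grew, from 545 to 926 with a variance trend and to 808 without dim genes.

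**Figure D3:**
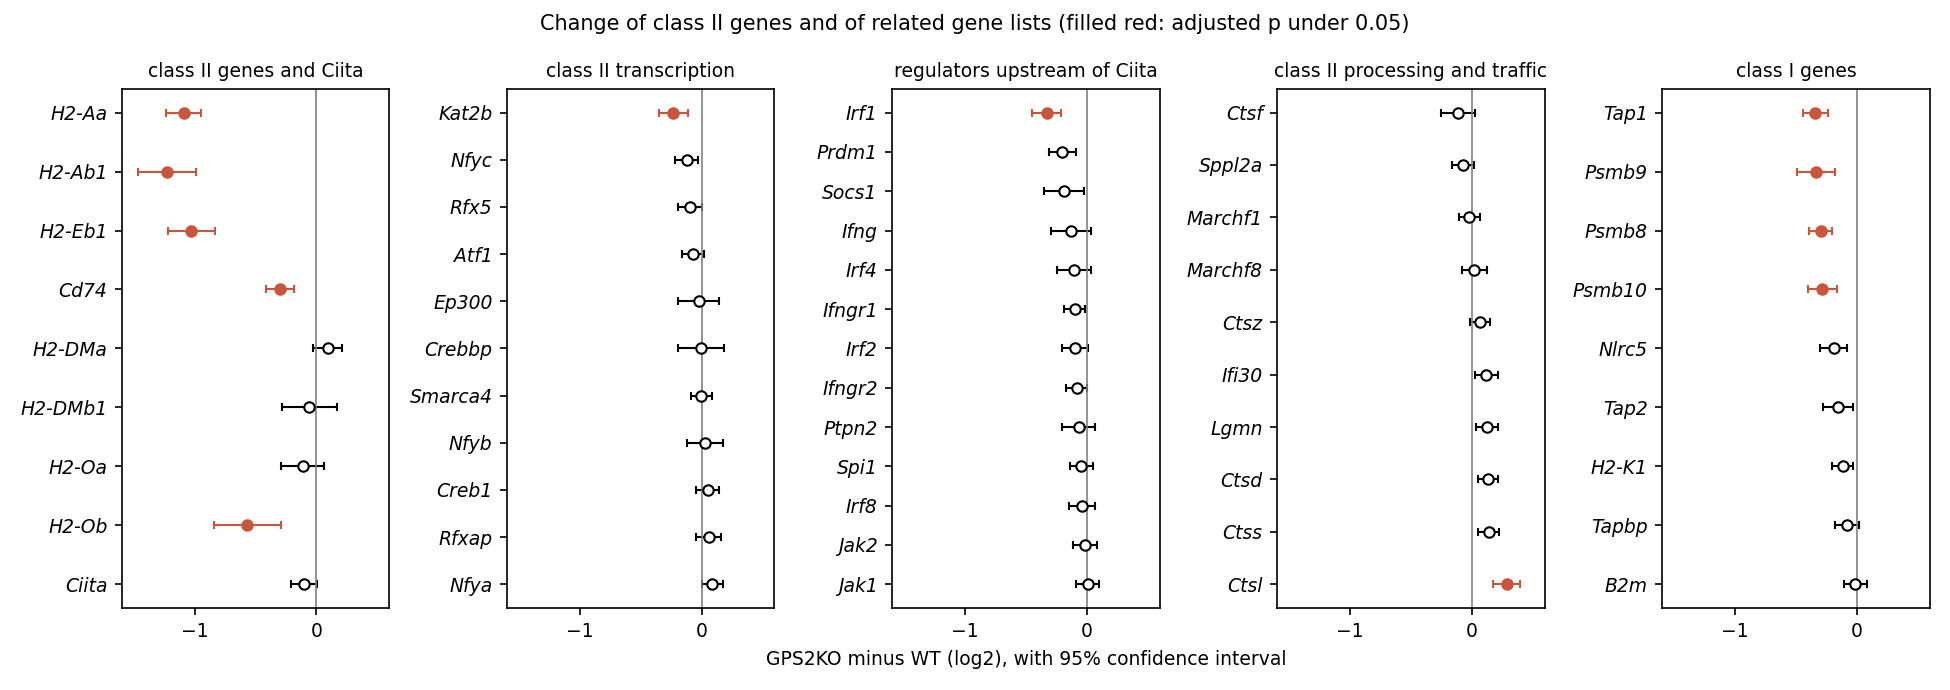
Change from WT to GPS2KO on the log2 scale with its 95% confidence interval, for the class II genes and Ciita and for each tested gene of 4 related lists; filled red points passed the adjusted p threshold of 0.05. H2-Ab1, H2-Aa and H2-Eb1, between -1.23 and -1.03, lie farther left than any gene of the other lists, whose lowest value is -0.34.

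Most of the class II genes lie side by side with genes of class I peptide loading. In a window of H2-Ab1 and the 10 tested genes on each side of it in RefSeq order, 8 of 21 genes fell and 0 rose. Of all tested genes 3.83% fell and 2.9% rose. The window was centred on a member, and 4 of its 8 falls were members. H2-Ob, H2-Ab1, H2-Aa and H2-Eb1 were consecutive in it. Of the 15 genes in the window that are not in the set, 4 fell: Tap1 and Psmb8 by 0.34 and 0.30 (adjusted p = 0.00435 and 0.00539), Psmb9 by 0.33 (0.0277) and Notch4, a Notch receptor 9 places from H2-Ab1, by 0.95 (SE 0.0695, adjusted p = 0.000408). The Psmb9 call ended with any 1 array but GPS2KO replicate 1 left out, at adjusted p from 0.0583 to 0.0947, and with every probe set tested (0.0898). The genes H2-DMa, Brd2 and H2-Oa on one side, and H2-Eb2, H2-Ea, Btnl2 and Btnl1 on the other, did not pass. Nor did Tap2, which lies between Psmb8 and H2-Ob (-0.16, adjusted p = 0.137). Over the list of class I genes, 4 of 9 fell, with a median of -0.19, beside 3.83% and -0.01 over all tested genes. On leaving out WT replicate 2 or 3 or GPS2KO replicate 2, or with every probe set tested, the count was 2, and with a variance trend or without the dim genes it was 6. Psmb10, an immunoproteasome subunit outside the window, fell by 0.28 (adjusted p = 0.0173), a call lost in the 3 cases of an omitted array (0.0578 to 0.0657) and with every probe set (0.0642). Nlrc5, the class I counterpart of CIITA, differed by -0.19 (adjusted p = 0.0629) and passed after median centring, on averaging its probe sets, on leaving out dim genes and in the test with a variance trend, where its adjusted p was 0.027 to 0.0421.

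**Figure D4:**
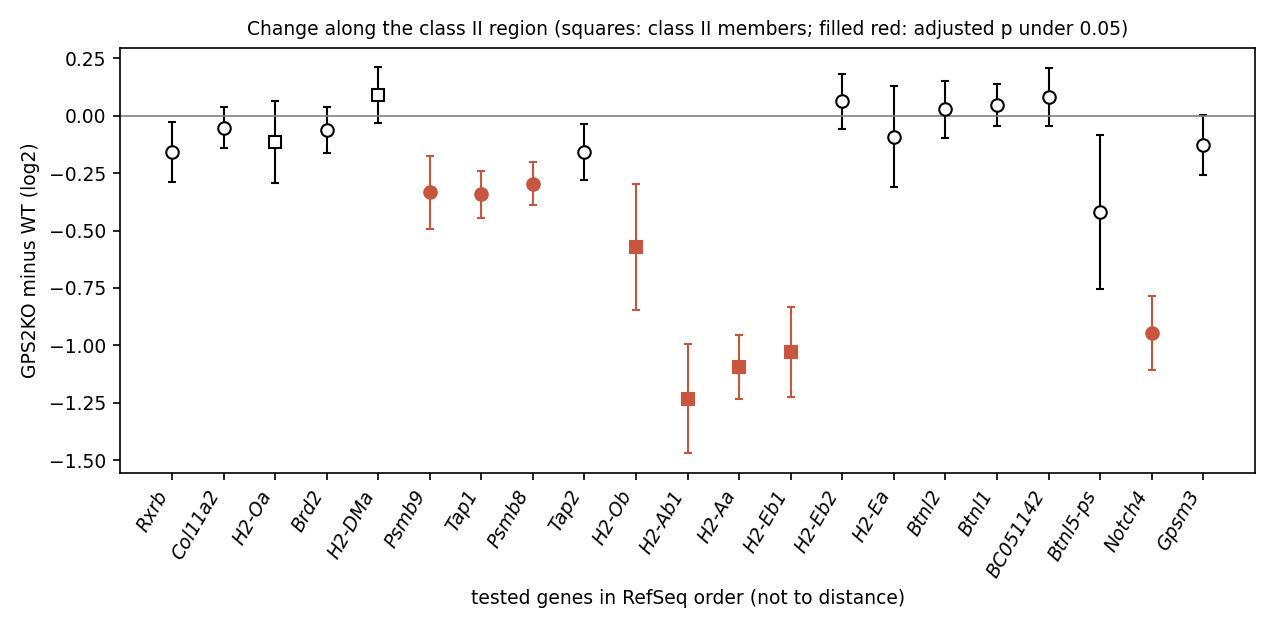
Change from WT to GPS2KO on the log2 scale, with 95% confidence intervals, for 21 tested genes in RefSeq order around H2-Ab1; squares are class II members and filled red symbols passed the adjusted p threshold of 0.05. The lowest points are H2-Ab1, H2-Aa, H2-Eb1 and Notch4, while H2-DMa and H2-Oa lie near 0.

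Profiles over the 6 arrays were also set against that of H2-Ab1, after subtracting each gene's WT mean, by their root mean square distance. H2-Aa was at 0.126 log2 units and H2-Eb1 at 0.154, whereas H2-Ob was at 0.499, Cd74 at 0.671 and H2-DMa at 0.946. Outside the set, the nearest 5 genes were the glycolipid synthase gene Gbgt1 at 0.153, the early activation antigen gene Cd69 at 0.188, Acod1, which makes itaconate, at 0.198, Serpinb6b, a protease inhibitor, at 0.201, and the chemokine gene Cxcl9 at 0.211. Their changes were -1.27, -1.05, -1.20, -1.08 and -1.37. This distance rests mainly on the group difference.

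Class II genes are also strongly expressed by dendritic cells and B cells, so markers of these cells were read beside them. Macrophage markers were bright, with all 7 tested genes at means of at least 10.0 and a summed level of 15.22 to 15.27 in WT and 15.29 to 15.30 in GPS2KO. Of the 7, 2 rose and 0 fell, where 2.9% of all tested genes rose and 3.83% fell. Mertk rose by 0.24 (adjusted p = 0.00991) and Itgam by 0.19 (adjusted p = 0.0279). The Itgam call was lost with any 1 array omitted (0.0557 to 0.1) and with every probe set tested (0.0731). Of 10 dendritic cell markers 6 were dim, among them Flt3, Clec9a and Xcr1, and Zbtb46 was at 5.81 ± 0.06 and 5.71 ± 0.09 (adjusted p = 0.432). Their summed level was 9.12 to 9.25 in WT and 9.68 to 9.85 in GPS2KO, a difference that 1 bright gene carries. Of the 10 only Itgax passed, an integrin that macrophages share, at 8.16 ± 0.16 and 9.16 ± 0.15 (1.00, adjusted p = 0.00132). The other 9 lay between -0.09 and 0.07, and the median of the list was -0.0026.

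Of 7 B cell markers 4 were dim, Cd79a, Ms4a1, Pax5 and Blk. The list's summed level was 9.92 to 10.00 in WT and 9.85 to 9.87 in GPS2KO. Its brightest gene was Ebf1, a factor that stromal cells also express, which differed by -0.20 (adjusted p = 0.0542). Ebf1 passed after median centring (0.0303), on leaving out dim genes (0.024) and with a variance trend (0.0124). Cd79b fell from 7.21 ± 0.07 to 6.76 ± 0.08 (adjusted p = 0.00373) and Cd22 rose by 0.32 (adjusted p = 0.0104). Fibroblast markers summed to 12.93 to 13.02 in WT and 12.82 to 12.84 in GPS2KO, but 3 of the 6 had higher means in GPS2KO. Among them the collagen gene Col1a1 fell by 0.20 (adjusted p = 0.0225) and the proteoglycan gene Dcn rose by 0.30 (adjusted p = 0.0334). The Col1a1 call was lost with any array but WT replicate 1 omitted (0.0718 to 0.0796), and that of Dcn with WT replicate 1 or 2 or GPS2KO replicate 1 or 2 omitted (0.0792 to 0.115). T cell markers summed to 9.02 to 9.05 and 9.34 to 9.44, with Cd4, which some macrophages express, up by 0.43 (adjusted p = 0.00142) and Cd3e, Cd3d and Cd3g dim. The summed levels of neutrophil and of plasmacytoid dendritic cell markers overlapped between the groups. Of these, the granule gene Ngp rose from 6.03 ± 0.11 to 6.48 ± 0.14 (adjusted p = 0.0151), a call lost with WT replicate 2 or 3 or GPS2KO replicate 1 or 2 omitted (0.052 to 0.0617). The part of these markers in the falls of the class II genes was not tested.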

How the data were processed

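The deposited log2 values are the authors' output of RMA in the R package oligo, per the submitters' processing notes; versions and build are not given in the sources used here. RMA corrects background, quantile-normalizes arrays and summarises probes by median polish, which hides a shift common to most genes. The log2 scale follows from the value range of 2.42 to 14.0. Of 35556 probe sets, 21218 had 1 gene symbol, 1881 several and 12457 none in the platform annotation from GEO, whose symbols may be outdated. By gene number 21185 matched RefSeq (GRCm38.p6). The brightest single-symbol probe set stood for each of 18820 genes.

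limma 3.58.1 (R 4.3.3; lmFit, eBayes, group as the only term, 2-sided, Benjamini-Hochberg) tested GPS2KO minus WT. Genes with only a shared probe set came from a fit of every probe set. The number of arrays limits the precision. On simulated data, 82% of 100 genes planted with a change of 0.5 and 100% of those with 1 or 2 were called, with 10 unchanged genes.

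The members and lists were chosen with earlier results of these data known. The text names the members, Gps2, up to 4 genes per list by smallest p, called genes within 10 places of H2-Ab1, the 5 nearest profiles and cell type markers; other genes of the lists and window were named after their values were seen. Alternatives were quantile normalization, median centring, a variance trend, robust moderation, leaving out dim genes, averaged probe sets, every probe set, a replicate block and leaving out each array; for named genes outside the set they were added after seeing the data.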

Additional observations from a re-analysis of the deposited data

How the results depend on the processing

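The 9 members were refitted under up to 14 other settings, 124 values in all. Of these, 118 kept their direction and their side of the threshold, 5 lost the call, all of H2-Ob, and 1 turned sign, H2-DMb1, which ran from -0.15 to 0.0196 (adjusted p = 0.946, without WT replicate 1) with 1 array left out. Ciita and H2-Oa are dim and have no value without dim genes. The count of fallen members was 4 or 5 throughout. Over all genes, 1265 passed, against 2174 with a variance trend, 1962 without dim genes, 824 with every probe set tested and 749 to 842 with 1 array left out. Fewer or more features are tested without dim genes and with every probe set; the cause of the rise with a variance trend was not tested. Rises made up 30.2% of the called genes after median centring, against 43.1%. Same-numbered arrays did not deviate together (Pearson r of deviations across genes 0.0035, 0.0258 and -0.006). This does not show whether the samples were paired, which the labels do not say. With the replicate number as a block 862 genes passed, 5 members still fell and the class I count was 2. Kat2b, Psmb9, Psmb10, Col1a1, Dcn and Itgam then had adjusted p of 0.0966, 0.0646, 0.0529, 0.0657, 0.0799 and 0.0722. Gps2 changed by -0.75 (adjusted p = 0.0027). Low signal limits Ciita, H2-Oa, H2-Ea and H2-Eb2.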

Other observations

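Several genes of the lists were measured only by probe sets that carry a second symbol, and they stayed out of the counts. For Ctsb, a lysosomal cathepsin, the probe sets shared with Fdft1 differed by 0.22 (adjusted p = 0.0416, over all probe sets) and by 0.08 (adjusted p = 0.43). For Rfxank, the RFX subunit that contacts CIITA, those shared with Nr2c2ap differed by -0.0004 and -0.10 (adjusted p = 0.997 and 0.349). Carm1, an arginine methyltransferase that acts with CIITA, shared its probe sets with Yipf2, at -0.08 and -0.11 (adjusted p = 0.37 and 0.322). The class I gene H2-D1 shared a probe set with H2-K1, at 0.03 (adjusted p = 0.713), while the probe set of H2-K1 alone differed by -0.12 (adjusted p = 0.126).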
